A study of Mus musculus with 9 samples.

Results

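The 8 genes described here carry out or switch on antigen presentation by major histocompatibility complex (MHC) class II molecules. They are the rows H2-Aa, H2-Ab1, H2-Eb1, H2-DMa, H2-DMb1, H2-DMb2, Cd74 and Ciita, taken by symbol from 23398 rows, and all 8 were among the 10878 genes tested. They were read from transcript levels in 9 cultures of primary mouse pro-B cells. The groups are 3 Ts1Rhr cultures on an FVB by C57BL/6 F1 background, 3 cultures of mice overexpressing Hmgn1 on C57BL/6 (HMGN1_OE), and 3 of wild-type littermates (WT), for which the sources used here name no background. The cell type label names Ts1Rhr cells for every sample, and groups follow the genotype label. Ts1Rhr mice carry an extra copy of a segment of chromosome 16 that includes Hmgn1, and none of the 8 genes lies in that segment. The sources used here do not name the promoter that drives the Hmgn1 overexpression. In every group, marrow from mice aged 6 to 8 weeks was grown with interleukin-7 in methylcellulose for 7 days and the colonies were pooled, so each library is a mixture of colonies. The mutant groups differ in both strain and genotype, and these cannot be told apart.

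Class II molecules are surface heterodimers that show peptides from endosomes to CD4+ T cells. H2-Aa and H2-Ab1 encode the α and β chains of the I-A molecule, and H2-Eb1 encodes the β chain of I-E, whose α chain gene is a pseudogene in C57BL/6 mice. Cd74, the invariant chain, fills the groove of new dimers and leads them to endosomes, where the H2-DM dimer of H2-DMa with an H2-DMb chain swaps its remnant for other peptides. Ciita is the coactivator that switches these genes on. Dendritic cells and mature B cells express them constitutively, and macrophages raise them on interferon gamma. I-A and I-E chains are among the most polymorphic mouse proteins, and the submitters' processing notes name the build mm9, which is of C57BL/6, so that FVB alleles could map less fully to these rows.

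Ciita binds no DNA itself and acts through factors on a conserved module of class II promoters, an X box followed by a Y box. RefSeq promoter windows (build GRCm38.p6, from 250 bases before to 50 after the start) were found for 5 of the 8 genes. Shown are the 4 with a Y box after an X box core or, in H2-Aa, after another motif, because Ciita acts through such sites. Capitals mark the X box core CNGATGATG, or TGACGTCA in H2-Aa, and the Y box ATTGG. H2-Aa is at chr17:34287774-34288073 on the minus strand. On the plus strand, H2-Eb1 is at chr17:34305617-34305916, H2-DMb1 at chr17:34152941-34153240 and H2-DMb2 at chr17:34144999-34145298.
H2-Aa promoter: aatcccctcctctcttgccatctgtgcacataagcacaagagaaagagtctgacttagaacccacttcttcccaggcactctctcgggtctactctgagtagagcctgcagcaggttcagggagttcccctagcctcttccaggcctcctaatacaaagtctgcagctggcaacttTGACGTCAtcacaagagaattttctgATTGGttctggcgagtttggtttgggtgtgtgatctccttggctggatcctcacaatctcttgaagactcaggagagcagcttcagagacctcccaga
H2-Eb1 promoter: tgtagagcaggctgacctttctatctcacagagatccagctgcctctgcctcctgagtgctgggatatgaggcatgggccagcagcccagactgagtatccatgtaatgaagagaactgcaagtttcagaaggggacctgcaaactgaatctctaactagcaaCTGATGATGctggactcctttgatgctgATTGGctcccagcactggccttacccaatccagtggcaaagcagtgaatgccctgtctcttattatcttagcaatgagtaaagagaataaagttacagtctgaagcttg
H2-DMb1 promoter: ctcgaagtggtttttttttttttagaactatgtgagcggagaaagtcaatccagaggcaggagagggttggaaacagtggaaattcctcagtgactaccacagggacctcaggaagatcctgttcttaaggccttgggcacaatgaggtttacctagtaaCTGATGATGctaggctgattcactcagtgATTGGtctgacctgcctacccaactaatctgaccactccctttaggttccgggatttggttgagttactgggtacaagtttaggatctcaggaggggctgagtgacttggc
H2-DMb2 promoter: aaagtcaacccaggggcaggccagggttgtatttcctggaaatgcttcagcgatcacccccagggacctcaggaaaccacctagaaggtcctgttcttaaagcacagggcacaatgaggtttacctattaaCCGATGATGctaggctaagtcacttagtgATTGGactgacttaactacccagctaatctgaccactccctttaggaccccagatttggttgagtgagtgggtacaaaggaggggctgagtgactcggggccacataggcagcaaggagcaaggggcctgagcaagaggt

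The letters of the X box core were chosen after these windows had been read. Searched on both strands, CNGATGATG occurred in 314 of 32851 promoter windows (0.956%) and ATTGG in 12289 (37.4%). The core with ATTGG at most 30 bases downstream on the same strand occurred in 9 windows (0.0274%), among them H2-Eb1, H2-DMb1 and H2-DMb2, with 19, 20 and 20 bases between the motifs. In H2-Aa the palindrome TGACGTCA, found in 588 windows (1.79%), stood 18 bases before its ATTGG. H2-Oa, H2-Ob and H2-Eb2, class II chain genes outside the 8, held ATTGG without these core letters, and H2-DMa held no such core in either of its windows.

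Values are FPKM, a read count scaled by transcript length and library total, so levels can be compared between genes. The authors deposited raw FPKM and a further normalised table, taken here to be spike-in normalised. Means are given ± SD with n = 3, and tests are from limma on log2 values, adjusted over all 10878 genes with a threshold of 0.05. Read depth is unknown, and the spacing of low raw values put it only roughly at 0.753 to 1.39 times that of WT replicate 3, from 37 to 83 of 511 to 943 low genes. Hmgn1 stood at 125 to 127 raw FPKM in Ts1Rhr, 71.9 to 77.2 in HMGN1_OE and 58.5 to 67.3 in WT. All 17 listed pro-B and pre-B markers were tested, and the macrophage gene Lyz2 took 2.66% to 5.19% of the summed raw FPKM. WT replicate 1 stood apart in its ribosomal RNA row Rn45s, with 10510 raw FPKM against at most 4495 in the other libraries. Ts1Rhr replicate 3 had 41.8 raw FPKM of the Y-linked gene Ddx3y and 0.443 of Xist, as male cells do, while the other libraries had at most 0.0642 and at least 94.2.

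Class II transcripts were present in all 9 libraries, and Cd74 and H2-Aa made up most of them. The 8 genes summed to 317 to 405 raw FPKM in Ts1Rhr, 302 to 486 in HMGN1_OE and 524 to 608 in WT. These sums are 0.0694% to 0.0863%, 0.0675% to 0.0975% and 0.103% to 0.111% of all raw FPKM in the same groups. On raw FPKM both mutant groups lay below WT in every library by this sum, for which no share of all genes was taken. Cd74 and H2-Aa together held 80.7% to 83.5% of it in any library. On normalised FPKM HMGN1_OE overlapped with WT for both genes. Cd74 and H2-Aa stood at 313 and 236 in HMGN1_OE replicate 2, above 191 and 161 in WT replicate 3. These libraries had the highest and lowest medians of all tested genes on normalised FPKM, 4.09 and 3.39 on the log2 scale. On raw FPKM both medians were 3.68, and Cd74 and H2-Aa were lower in HMGN1_OE replicate 2, at 220 and 166 against 245 and 206.

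The order of the mean raw levels over the 9 libraries was Cd74 at 190.0, H2-Aa at 179, H2-Ab1 at 49.5, H2-Eb1 at 12.7, H2-DMa at 7.85, H2-DMb1 at 3.84, H2-DMb2 at 3.13 and Ciita at 2.68 FPKM. The ranges of Cd74 (117 to 245) and H2-Aa (119 to 256) overlapped almost fully, so that this pair is not ordered. H2-Ab1 (33.5 to 71.5) overlapped neither H2-Aa nor H2-Eb1 (5.92 to 19.5). H2-DMb1, H2-DMb2 and Ciita could not be ordered by their ranges either, which began at 1.66, 1.44 and 2.09 and ended at 6.94, 6.17 and 4 FPKM. H2-DMa (5.04 to 12.2) overlapped H2-Eb1, H2-DMb1 and H2-DMb2, and H2-Eb1 also overlapped H2-DMb1 and H2-DMb2. In Ts1Rhr replicate 2 H2-DMa, at 7.34, exceeded H2-Eb1, at 5.92. Among tested genes Cd74 ranked 338th and Ciita 9536th by mean raw FPKM. Cd74 was 47.0 to 104 times Ciita on raw FPKM within a library.

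**Figure D1:**
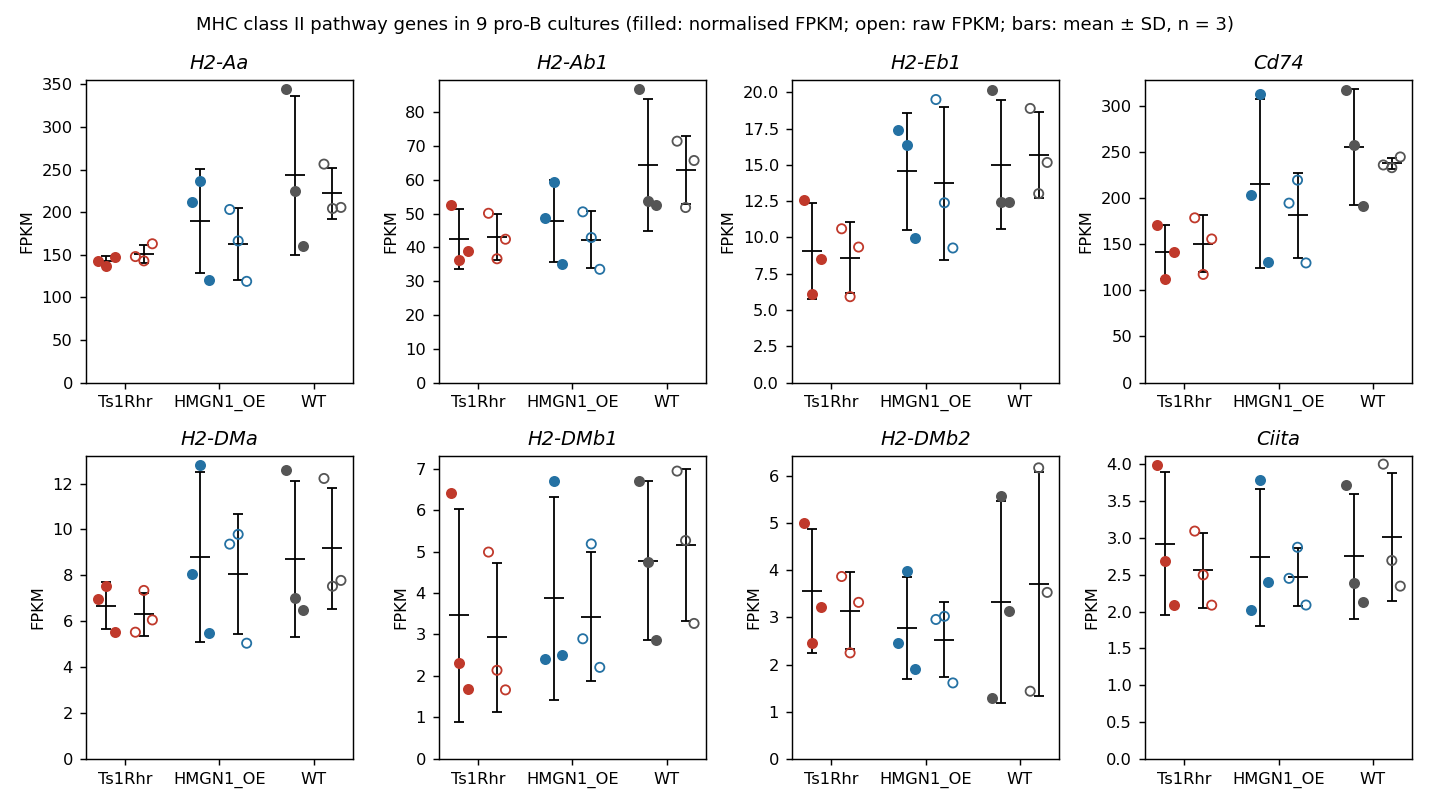
FPKM of the 8 class II genes in each library, by group, with normalised values filled and raw values open and bars for mean ± SD (n = 3). H2-Aa, H2-Ab1 and Cd74 lie lower in every Ts1Rhr library than in any WT library on both scales, while Ciita and H2-DMb2 overlap.

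In Ts1Rhr cultures the peptide-binding chains and the invariant chain lay below WT, without passing the test. H2-Aa was 143, 137 and 148 normalised FPKM in Ts1Rhr replicates 1 to 3, against 344, 225 and 161 in WT replicates 1 to 3. Every Ts1Rhr library was below every WT library, and the WT libraries spread more widely. The log2 fold change was -0.70 with a standard error of 0.33 (limma, adjusted p = 0.251). On raw FPKM the values were 148, 143 and 163 in Ts1Rhr against 256, 204 and 206 in WT, a log2 fold change of -0.55 with a standard error of 0.19 (limma, adjusted p = 0.0868).

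H2-Ab1, its partner chain, followed the same order. It had 52.6, 36.2 and 38.9 normalised FPKM in Ts1Rhr, against 87.0, 53.7 and 52.7 in WT. The groups did not overlap, though the highest Ts1Rhr library lay next to the lowest WT libraries. Its log2 fold change was -0.58 with a standard error of 0.28 (limma, adjusted p = 0.264), and -0.55 on raw FPKM (limma, adjusted p = 0.0832).

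Cd74 gave the lowest p of the 8. It had 171, 113 and 142 normalised FPKM in Ts1Rhr, against 317, 258 and 191 in WT, and the groups did not overlap. The log2 fold change was -0.84 with a standard error of 0.33, a fold of 0.559 with a 95% confidence interval of 0.343 to 0.912 before adjustment (limma, adjusted p = 0.191). On raw FPKM Cd74 averaged 151 ± 31.0 in Ts1Rhr and 238 ± 6.04 in WT (SD, n = 3 each), a log2 fold change of -0.68 with a standard error of 0.21 (limma, adjusted p = 0.0631). Its WT libraries, at 236, 233 and 245 raw FPKM, were the most even of any group.

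H2-Eb1 had 12.6, 6.08 and 8.50 normalised FPKM in Ts1Rhr, against 20.2, 12.4 and 12.5 in WT. Ts1Rhr replicate 1 lay just above the lowest WT libraries, so that the groups overlapped. The log2 fold change was -0.75 with a standard error of 0.31 (limma, adjusted p = 0.198). On raw FPKM the values were 10.6, 5.92 and 9.34 in Ts1Rhr against 18.9, 13.0 and 15.2 in WT, with no overlap and a log2 fold change of -0.88 (limma, adjusted p = 0.0698).

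The peptide exchange genes overlapped between groups on normalised FPKM, and H2-DMa did not on raw FPKM. H2-DMa had 6.96, 7.54 and 5.55 normalised FPKM in Ts1Rhr, against 12.6, 7.03 and 6.49 in WT, and only WT replicate 1 stood clear of Ts1Rhr. Its log2 fold change was -0.33 with a standard error of 0.32 (limma, adjusted p = 0.592). On raw FPKM H2-DMa had 5.52, 7.34 and 6.06 in Ts1Rhr against 12.2, 7.53 and 7.78 in WT, each Ts1Rhr library lower, with a log2 fold change of -0.51 (limma, adjusted p = 0.227). H2-DMb1 had 6.41, 2.30 and 1.68 normalised FPKM in Ts1Rhr and 6.71, 4.76 and 2.87 in WT. H2-DMb2 had 5.01, 2.45 and 3.23 in Ts1Rhr and 1.29, 5.57 and 3.14 in WT. Their log2 fold changes were -0.63 and 0.27 with standard errors of 0.49 and 0.48 (limma, adjusted p = 0.488 and 0.784), and that of H2-DMb2 was -0.04 on raw FPKM and -0.30 without WT replicate 1.

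H2-DMb1 and H2-DMb2 are neighbouring paralogs with stretches in common, and the split of reads between them is uncertain. Between their longest coding transcripts in GENCODE M21 (1404 and 1483 bases), 361 of the 1355 windows of 50 bases in H2-DMb1 (26.6%) recurred unchanged in H2-DMb2, and 69.1% of the columns of their alignment, gaps included, were identical. No other pair of the 6 H2 genes shared such a window. In WT replicate 1 H2-DMb1 was 4.83 times H2-DMb2 on raw FPKM, against 0.501 to 1.71 in the other 8 libraries. Summed, the pair had 4.39 to 8.86 raw FPKM in Ts1Rhr, 3.82 to 8.21 in HMGN1_OE and 6.80 to 11.4 in WT, so that the groups overlapped.

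Ciita, the coactivator, changed sign between scalings and overlapped between groups. It had 3.99, 2.68 and 2.09 normalised FPKM in Ts1Rhr and 3.72, 2.39 and 2.14 in WT, fully overlapping. The log2 fold change was 0.08 with a standard error of 0.39 (limma, adjusted p = 0.931), and its 95% interval before adjustment, from -0.74 to 0.90, spans falls and rises alike. The sign turned on raw FPKM (-0.21), after libraries were set to 1 common median (-0.06) and with 1 spike-in factor per library (-0.23).

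Of the 8 genes, 0 passed the test in Ts1Rhr on either scale (limma). On normalised FPKM 6 of 8 had a log2 fold change below 0, as 40.1% of all genes did, and on raw FPKM 8 of 8, as 48.9% did. The background of calls was 0.570% of all tested genes called on normalised and 8.85% on raw FPKM. At an unadjusted p under 0.05, 3 were lower on normalised FPKM (H2-Aa, H2-Eb1 and Cd74), against 6.30% of all genes, and 4 on raw FPKM, with H2-Ab1 added, against 15.5%. The groups did not overlap, with Ts1Rhr lower, for 3 of 8 on normalised FPKM, where 8.43% of all genes did so, and for 5 of 8 on raw FPKM, where 18.5% did. The median log2 fold change of the 8 was -0.60 on normalised FPKM, beside 0.12 for all tested genes, and -0.55 on raw FPKM, beside 0.01. On raw FPKM H2-Aa, H2-Eb1 and Cd74 passed only when HMGN1_OE replicate 3 was left out, which enters through the shared spread (limma, lowest adjusted p = 0.0345). Without any other single library 0 of 8 passed there. Without WT replicate 1, the library high in Rn45s, the log2 fold changes on normalised FPKM were -0.42 for H2-Aa, -0.34 for H2-Ab1, -0.52 for H2-Eb1 and -0.67 for Cd74, and without the male Ts1Rhr replicate 3 they were -0.73, -0.52, -0.74 and -0.85 for the same genes.

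**Figure D2:**
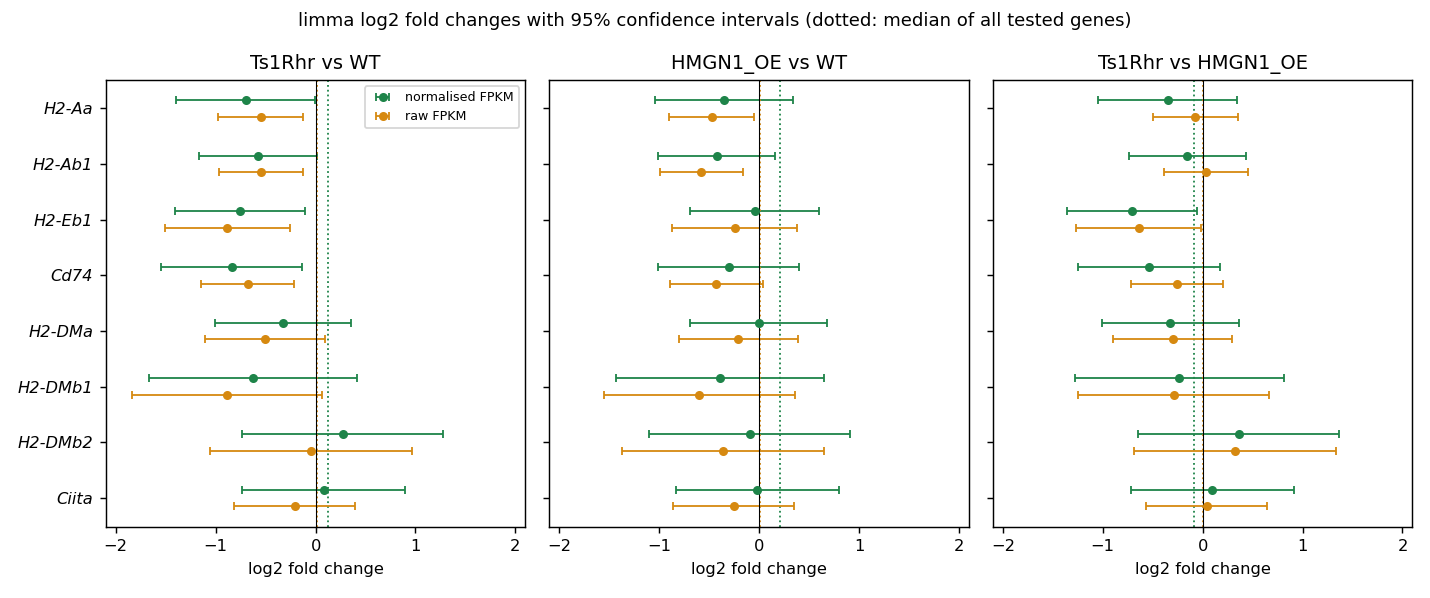
Log2 fold changes of the 8 class II genes with their 95% confidence intervals before adjustment, in 3 comparisons, from normalised (green) and raw (orange) FPKM. In Ts1Rhr against WT the raw intervals of H2-Aa, H2-Ab1, H2-Eb1 and Cd74 lie below 0, and dotted lines mark the median of all tested genes.

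In HMGN1_OE cultures no class II gene passed the test against WT, and on normalised FPKM all groups overlapped. H2-Aa had 212, 236 and 120.2 normalised FPKM in HMGN1_OE replicates 1 to 3, and Cd74 had 203, 313 and 131, against the WT values above. Replicate 3 was the lowest of the HMGN1_OE libraries for both genes, and the groups overlapped. Their log2 fold changes were -0.35 and -0.30 with standard errors of 0.33 and 0.33 (limma, adjusted p = 0.673 and 0.722), and without HMGN1_OE replicate 3 they were -0.05 and 0.01. H2-Ab1 had 48.7, 59.4 and 35.1 normalised FPKM with a log2 fold change of -0.43 and a standard error of 0.28 (limma, adjusted p = 0.555).

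The remaining 5 genes overlapped with WT in HMGN1_OE. H2-Eb1 averaged 14.6 ± 4.03 normalised FPKM in HMGN1_OE and 15.01 ± 4.45 in WT, H2-DMa 8.80 ± 3.71 and 8.71 ± 3.38, and Ciita 2.74 ± 0.928 and 2.75 ± 0.85 (SD, n = 3 each). H2-DMb1 averaged 3.87 ± 2.45 in HMGN1_OE and 4.78 ± 1.92 in WT, and H2-DMb2 2.78 ± 1.08 and 3.33 ± 2.15. Adjusted p-values of these 5 genes ran from 0.756 to 0.997 (limma), and the interval of H2-Eb1, from -0.69 to 0.60 on the log2 scale, leaves a wide range of differences in either direction.

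On raw FPKM H2-Aa, H2-Ab1 and Cd74 were lower in every HMGN1_OE library than in any WT library. H2-Ab1 had 50.5, 42.9 and 33.5 raw FPKM in HMGN1_OE, against 71.5, 51.8 and 65.7 in WT, and Cd74 had 195, 219.6 and 129.8 against 236, 233 and 245. The log2 fold changes of H2-Aa, H2-Ab1 and Cd74 were -0.47, -0.58 and -0.43 (limma, adjusted p = 0.316, 0.292 and 0.372). All 8 had a log2 fold change below 0 on both scales, as did 27.3% of all genes on normalised and 48.3% on raw FPKM. In all, 0 of 8 passed on either scale (limma), where 0.0919% of all genes were called on normalised and 0.0368% on raw FPKM. At an unadjusted p under 0.05, 0 passed on normalised FPKM and 2 on raw FPKM, H2-Aa and H2-Ab1, against 0.837% and 7.39% of all genes lower. Groups did not overlap for 0 of 8 on normalised FPKM and 3 of 8 on raw FPKM, against 0.800% and 8.25% of all genes. The median log2 fold change was -0.20 on normalised FPKM, beside 0.21 for all tested genes, and -0.40 on raw FPKM, beside 0.01. Both comparisons share the WT libraries, so a WT library that is high counts in each.

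Between the mutants, H2-Eb1 had the lowest p of the 8. It averaged 9.06 ± 3.29 normalised FPKM in Ts1Rhr and 14.6 ± 4.03 in HMGN1_OE (SD, n = 3 each), a log2 fold change of -0.71 with a standard error of 0.31 (limma, unadjusted p = 0.034, adjusted p = 0.989). Its groups overlapped, with 12.6 in the highest Ts1Rhr library and 9.96 in the lowest HMGN1_OE library. Of the 8 genes 0 passed (limma), as did 0% of all tested genes on either scale, and 1 of 8 had an unadjusted p under 0.05 on each scale, H2-Eb1, against 3.50% and 4.95% of all genes lower. The groups overlapped for all 8, while Ts1Rhr lay wholly below HMGN1_OE for 6.60% of all genes on normalised and 5.99% on raw FPKM. The log2 fold change was below 0 for 6 of 8 on normalised and 5 of 8 on raw FPKM, beside 62.5% and 49.7% of all genes. Cd74 had a log2 fold change of -0.54 (limma, adjusted p = 0.989), and H2-Ab1 of -0.15 on normalised and 0.03 on raw FPKM.

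Ratios within a library compare class II genes with each other. The ratio of H2-Eb1 to H2-Ab1 on raw FPKM was 0.162, 0.212 and 0.220 in the Ts1Rhr libraries in rising order, 0.277, 0.289 and 0.386 in HMGN1_OE, and 0.231, 0.251 and 0.264 in WT. The 3 groups did not overlap on raw FPKM. On normalised FPKM the ratio was 0.168, 0.219 and 0.240 in Ts1Rhr in rising order, 0.276, 0.284 and 0.357 in HMGN1_OE, and 0.232, 0.232 and 0.236 in WT, so that the highest Ts1Rhr library lay above every WT library. Over all tested genes the ratio to H2-Ab1 on raw FPKM was lower in every Ts1Rhr than in every WT library for 2.11%, and higher in every HMGN1_OE than in every WT library for 43.8%. This ratio was picked after its values were seen and has no test. H2-Aa to H2-Ab1 ran from 2.95 to 3.90 in Ts1Rhr, 3.54 to 4.02 in HMGN1_OE and 3.13 to 3.94 in WT, and Cd74 to H2-Aa from 0.821 to 1.21, 0.958 to 1.32 and 0.921 to 1.19. Both overlapped between all groups.

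**Figure D3:**
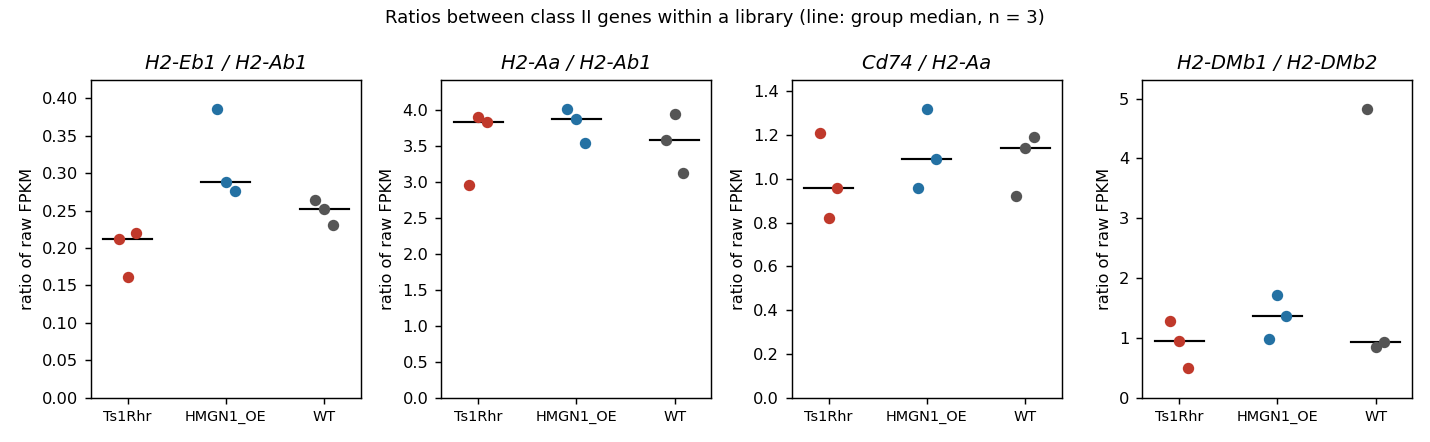
Ratios of raw FPKM between class II genes in each library, by group, with lines at the group medians. H2-Eb1 to H2-Ab1, picked after its values were seen, separates the 3 groups on raw FPKM, while Ts1Rhr and WT overlap on normalised FPKM. H2-Aa to H2-Ab1 and Cd74 to H2-Aa overlap, and WT replicate 1 is alone at 4.83 for H2-DMb1 to H2-DMb2.

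Other class II chains were mixed in direction. H2-Oa and H2-Ob form the H2-O dimer, an inhibitor of H2-DM in B cells. H2-Oa had 8.03, 4.87 and 9.33 raw FPKM in Ts1Rhr, 13.2, 9.11 and 6.98 in HMGN1_OE, and 7.00, 3.49 and 5.12 in WT. Its log2 fold change on normalised FPKM was 0.72 in Ts1Rhr and 1.13 in HMGN1_OE against WT (limma, adjusted p = 0.238 and 0.278). H2-Ob averaged 11.2 ± 2.32 raw FPKM in Ts1Rhr, 10.9 ± 1.15 in HMGN1_OE and 10.03 ± 2.55 in WT. H2-Ea-ps, the pseudogene row of the I-E α chain, was at 0.778, 0.522 and 0.445 raw FPKM in Ts1Rhr, 2.97, 0.652 and 0.081 in HMGN1_OE, and 1.31, 2.19 and 1.68 in WT. All Ts1Rhr libraries lay below WT for that row, while HMGN1_OE spanned the whole range. None of these 3 genes passed (limma).

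Regulators of class II transcription had mostly positive log2 fold changes in Ts1Rhr. Of 17 tested in Ts1Rhr, 15 were higher and 2 lower on either scale, with a median log2 fold change of 0.28 on raw FPKM, and 0 passed on normalised FPKM (limma). Among all genes 40.1% were lower on normalised and 48.9% on raw FPKM. Prdm1, lower on both scales, had the largest change of the 17 on raw FPKM, a log2 fold change of -1.03 (limma, adjusted p = 0.0736). Nfyb, a subunit of the NF-Y factor that binds the Y box, rose on raw FPKM, with 32.0 ± 4.81 in Ts1Rhr and 20.3 ± 1.77 in WT (SD, n = 3 each), a log2 fold change of 0.65 (limma, adjusted p = 0.0464). This 1 call of 17 does not exceed the 8.85% of all genes called on raw FPKM. On raw FPKM in HMGN1_OE, where 48.3% of all genes were lower, 12 were higher and 5 lower with 0 called. The B cell factors Pax5 and Irf4 had log2 fold changes of 0.31 and 0.17 there.

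Genes of endosomal processing were mostly lower in Ts1Rhr. Of 11 tested, 10 were lower on either scale, 5 fell on raw FPKM and 0 were called on normalised FPKM (limma), with a median of -0.87 on raw FPKM. Among all genes 4.56% fell and 4.29% rose on raw FPKM, and 48.9% had a log2 fold change below 0 there, beside 40.1% on normalised FPKM. Ctss, the protease that trims the invariant chain, had 1832, 1437 and 1771 raw FPKM in Ts1Rhr against 4651, 3200.1 and 3299 in WT, a log2 fold change of -1.13 (limma, adjusted p = 0.0374). Ctsb, Ctsz and Lgmn, further endosomal proteases, fell with log2 fold changes of -0.93, -0.94 and -0.91 (limma, adjusted p = 0.0405, 0.0374 and 0.0416), and so did Cd83, a surface protein that holds class II at the surface, at -0.87 (limma, adjusted p = 0.0477). Calls on raw FPKM depended on which libraries were kept. Of these 5, 0 were left without Ts1Rhr replicate 1, 2 or 3 or WT replicate 1 or 3, and 1 without WT replicate 2. Without HMGN1_OE replicate 1, 2 were left, and without HMGN1_OE replicate 2 or 3 all 5 were. Of all 24 listed genes called on raw FPKM in Ts1Rhr, 0 stayed called without Ts1Rhr replicate 2 or 3 or WT replicate 1 or 3, 6 without Ts1Rhr replicate 1 and 14 without WT replicate 2. Without HMGN1_OE replicates 1, 2 and 3 in turn, 19, 23 and 24 stayed. Calls over all genes fell from 963 to 3 and 1 without Ts1Rhr replicates 2 and 3, and to 1 and 2 without WT replicates 1 and 3. In HMGN1_OE 10 of the 11 were lower, with 0 called and a median of -0.46 on raw FPKM, where 48.3% of all genes were lower.

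Costimulatory genes, class I genes and interferon gamma genes gave few calls. Of 4 tested costimulatory genes all were lower on raw FPKM in both mutants with 0 called, though 1 was higher in Ts1Rhr on normalised FPKM, and Cd274, the ligand of PD-1, had log2 fold changes of -0.62 in Ts1Rhr and -0.63 in HMGN1_OE (limma, adjusted p = 0.135 and 0.321). Of 18 class I presentation genes 8 were higher and 10 lower in Ts1Rhr on raw FPKM with 0 called. H2-D1, a class I heavy chain, averaged 863 ± 144 raw FPKM in Ts1Rhr and 1384 ± 198 in WT, while the immunoproteasome subunit Psmb9 averaged 10.9 ± 1.41 and 6.83 ± 0.959 (SD, n = 3 each; limma, adjusted p = 0.0581 and 0.062). Of 15 interferon gamma genes outside the 8, 9 were higher in Ts1Rhr and 1 passed on raw FPKM, where 48.9% of all genes were lower and 8.85% called. The 1 call of 15 does not exceed that share. It was the guanylate-binding protein gene Gbp7, which rose by 0.90 on the log2 scale (limma, adjusted p = 0.0373). Ifng itself was under the filter, with at most 1.16 raw FPKM in any library, and Cxcl9, an interferon gamma target of macrophages, with at most 0.121.

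**Figure D4:**
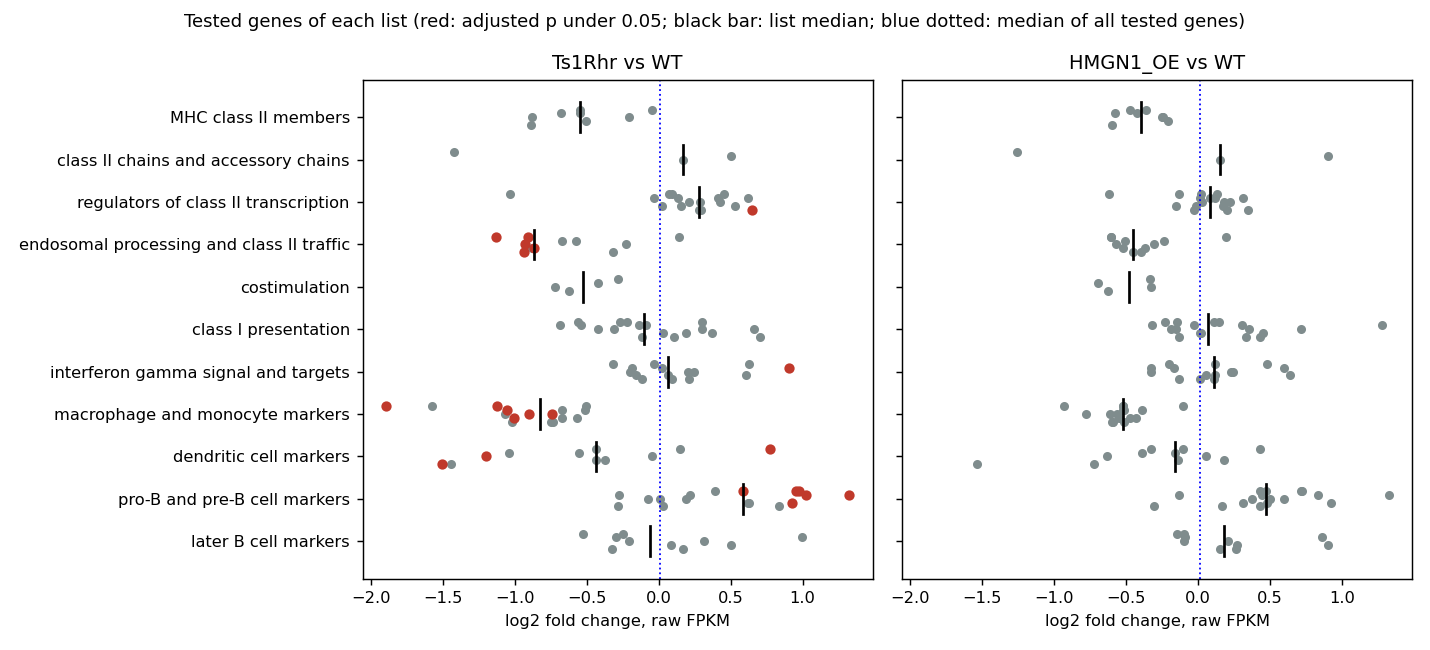
Log2 fold changes on raw FPKM of the tested genes in each list, with called genes in red, list medians as black bars and the median of all tested genes dotted in blue. In Ts1Rhr against WT the class II genes have a median of -0.55, the macrophage markers of -0.83 and the regulators of 0.28.

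Markers of other cells moved with the class II genes, and fewer cells of a type cannot be told apart from less RNA per cell in such bulk cultures. On raw FPKM in Ts1Rhr, 48.9% of all genes had a log2 fold change below 0, 4.56% were called lower and 4.29% higher. All 16 tested macrophage and monocyte markers were lower in Ts1Rhr, with a median log2 fold change of -0.83 on raw FPKM, and 6 fell there, Csf1r, Cd68, Emr1, Mrc1, C1qa and Msr1 (limma). Csf1r, the macrophage growth factor receptor, had 107.5, 100.4 and 63.2 raw FPKM in Ts1Rhr against 220.3, 171 and 186 in WT. The summed raw FPKM of the 19 rows found was 14048 to 16255 in Ts1Rhr, 12736 to 26613 in HMGN1_OE and 21567 to 32677 in WT, and 0 of the 19 were at 0 in all libraries. Of 18 dendritic cell markers 11 were tested, with 9 lower and a median of -0.44, and Bst2 and Fscn1 fell while Dpp4 rose (limma). Of the listed markers under the filter, Flt3, Zbtb46, Xcr1, Clec9a and Batf3 averaged 0.47, 0.156, 0.444, 0.115 and 0.766 raw FPKM. The 11 tested, among them Itgax, Siglech and Ccr7, passed that filter, so the low genes do not stand for the list. The list summed to 547 to 942 in Ts1Rhr, 851 to 1612 in HMGN1_OE and 1161 to 1815 in WT, mostly from Id2, which other cells also express. Pro-B and pre-B markers went up, with 14 of 17 higher, a median of 0.59 and rises of Vpreb1, Vpreb2, Igll1, Rag2, Dntt and Bst1 (limma). They summed to 3582 to 4365 raw FPKM in Ts1Rhr, 3602 to 4919 in HMGN1_OE and 2772 to 3489 in WT. In HMGN1_OE on raw FPKM 16 of the 16 macrophage markers were lower with a median of -0.52, 8 of the 11 dendritic cell markers were lower with a median of -0.16, and 15 of the 17 pro-B and pre-B markers were higher with a median of 0.47, and 0 were called (limma). Among all genes 48.3% were lower and 0.0368% were called there. On normalised FPKM 0 genes of these 3 lists were called, where 0.570% of all genes were called in Ts1Rhr and 0.0919% in HMGN1_OE. The part of these lists in the class II levels was not tested.

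Other marker lists differed in direction. Neutrophil markers were lower in all 10 tested rows on raw FPKM with 0 called, with medians of -0.82 in Ts1Rhr and -0.90 in HMGN1_OE. Among all genes 48.9% and 48.3% were lower, and 8.85% and 0.0368% were called. The list summed to 85.0 to 205 raw FPKM in Ts1Rhr, 75.9 to 259 in HMGN1_OE and 185 to 316 in WT. Later B cell markers in Ts1Rhr were 5 higher and 5 lower on either scale with 0 called. In HMGN1_OE 10 were higher and 0 lower on normalised FPKM, and 6 and 4 on raw FPKM, with 0 called. Among all genes 27.3% and 48.3% were lower there. Of 12 rows found, 10 were tested, Cd37 and Cd72 being the most abundant. Fcer2a and Cr2 were under the filter, with means of 0.405 and 0.244 raw FPKM. The list summed to 251 to 396 raw FPKM in Ts1Rhr, 331 to 465 in HMGN1_OE and 314 to 366 in WT. Basophil and mast cell markers had 0 tested members and at most 4.67 raw FPKM in sum, with Mcpt4, Tpsb2 and Cma1 at 0 in all libraries. Of the T, NK and stromal list 3 were tested, Gzma was at 0 throughout, and the sum was 4.30 to 7.58 raw FPKM in Ts1Rhr, 5.61 to 6.44 in HMGN1_OE and 22.5 to 37.9 in WT. Its matrix genes Sparc and Col1a2 fell on normalised FPKM, with log2 fold changes of -3.10 and -2.71 in Ts1Rhr and -3.02 and -3.07 in HMGN1_OE (limma, adjusted p = 0.0072 and 0.0327, and 0.0074 and 0.0256), where 0.147% and 0.0827% of all genes fell.

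Set against these lists within each library, all 8 genes overlapped between Ts1Rhr and WT beside the dendritic cell markers. Beside the pro-B and pre-B markers H2-Aa, H2-Ab1, H2-Eb1, H2-DMa, Cd74 and Ciita were lower in every Ts1Rhr than in every WT library, and beside the macrophage markers H2-Aa and Ciita were higher. The pro-B and pre-B marker mean was itself higher in every Ts1Rhr than in every WT library, by 0.48 on average. The macrophage and dendritic cell marker means were lower, by 0.92 and 0.55. A gene at equal levels would thus tend to lie lower beside the first list and higher beside the others. No share of all genes was taken for these measures. H2-Aa stood 4.18 to 4.39 above the mean log2 raw FPKM of the 11 dendritic cell markers in Ts1Rhr, 3.87 to 4.45 in HMGN1_OE and 4.08 to 4.39 in WT, and the mean of Ts1Rhr was 0.01 above that of WT. Cd74 gave a difference of -0.13 and H2-Eb1 of -0.33, with overlap. Beside the 16 macrophage markers H2-Aa stood 2.12 to 2.75 above their mean in Ts1Rhr, 1.66 to 2.34 in HMGN1_OE and 1.91 to 2.07 in WT, so that Ts1Rhr lay 0.38 above WT on average with no overlap, while HMGN1_OE overlapped with WT. Ciita lay 0.72 above WT by the same measure, with no overlap. Beside the 17 pro-B and pre-B markers H2-Aa stood 0.20 to 0.29 above the mean in Ts1Rhr, -0.31 to 0.65 in HMGN1_OE and 0.94 to 1.71 in WT, with both mutant groups apart from WT.

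**Figure D5:**
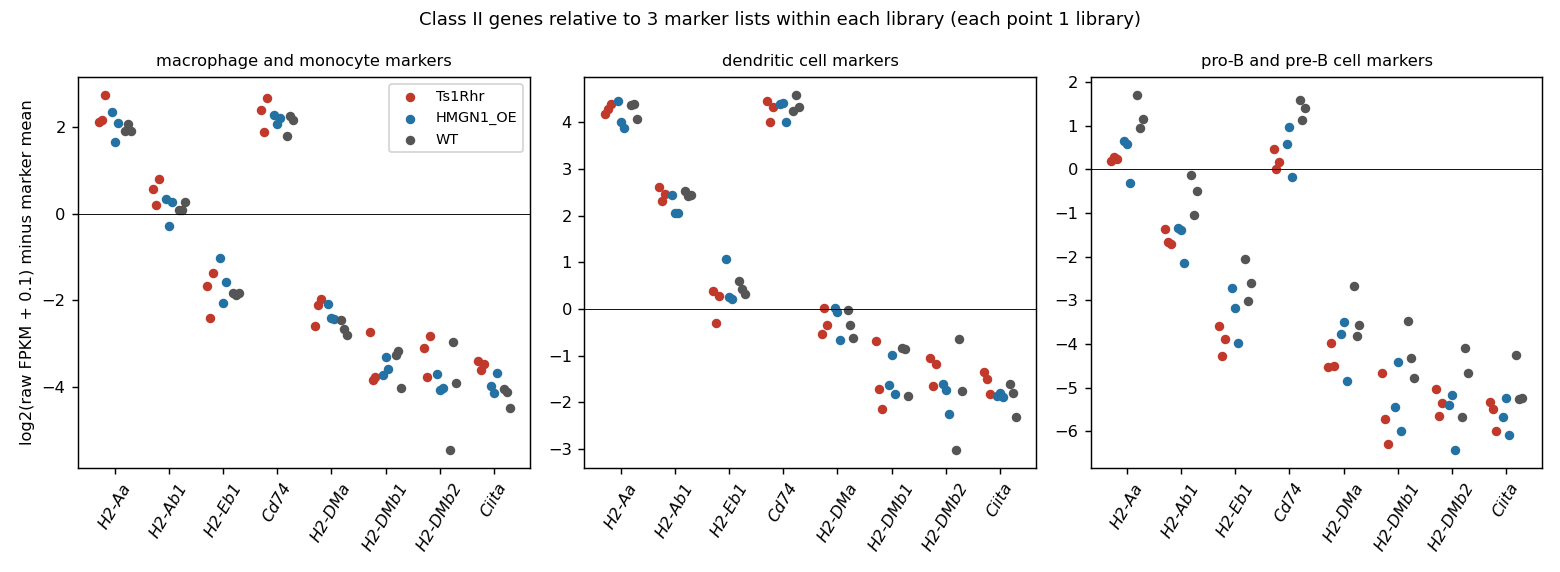
Log2 raw FPKM of each class II gene minus the mean of 3 marker lists, for each library. H2-Aa and Cd74 overlap between groups beside the dendritic cell markers, and both genes lie lower in Ts1Rhr and HMGN1_OE than in WT beside the pro-B and pre-B markers. The mean of the pro-B and pre-B markers is itself higher in both mutant groups than in WT.

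A mean profile of the 8 genes was taken over the libraries. The mean centred log2 level of the 8 genes on raw FPKM was 0.04, -0.43 and -0.29 in Ts1Rhr replicates 1 to 3, 0.13, 0.15 and -0.53 in HMGN1_OE, and 0.43, 0.31 and 0.19 in WT. HMGN1_OE replicate 3 was the lowest library and WT replicate 1 the highest. Neither Ts1Rhr nor HMGN1_OE overlapped with WT on raw FPKM, though HMGN1_OE replicate 2 at 0.15 lay next to WT replicate 3 at 0.19. No share of all genes was taken for this separation. On normalised FPKM each of the 8 genes was higher in HMGN1_OE replicate 2 than in WT replicate 3. The median of all tested genes was higher there too, at 4.09 against 3.39 on the log2 scale, so this order is not particular to the 8. The 8 genes make up this mean profile, so that their closeness to it is partly built in. Among them Cd74 was closest, with a root mean square difference of 0.12 on the log2 scale over 9 libraries. H2-Aa followed at 0.15 and H2-Ab1 at 0.17, while H2-DMb1 lay at 0.42 and H2-DMb2 was farthest at 0.58. Among genes outside the 8 the closest profiles were Fez2 at 0.07, the AP-1 factor Jun at 0.08, the actin-binding coronin Coro1c at 0.09, Sh3tc1 at 0.11, Reep5 at 0.11, Fam219a at 0.11, the histidine-degrading enzyme Hal at 0.11, Gnptg at 0.11, and the transporters Slc3a2 and Slc27a4 at 0.12 each. Each of these outside genes was closer than Cd74. The median tested gene lay at 0.42, and H2-DMb1 and H2-DMb2 were no closer than that. Jun averaged 29.3 raw FPKM in Ts1Rhr, 33.8 in HMGN1_OE and 42.1 in WT.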

How the data were processed

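RNA sequencing was analysed from 2 tables deposited by the authors, 1 of raw FPKM and 1 of normalised FPKM, with 1 column per library. Per the submitters' processing notes the tools were HISAT and Cufflinks 2.0.0 and the build mm9, without settings or annotation. Per the labels' protocols, 1 µl of ERCC spike-in RNA diluted 1 in 1000 was added per sample from equal cell numbers. No normalised value is 0 (minimum 0.0699). The labels name the libraries of each group biological replicates, but no source used here ties them to animals. Ts1Rhr replicate 3 differed in sex from replicates 1 and 2 by its Ddx3y and Xist levels, so that group did not come from a single animal. The p-values reflect only how far these samples spread, which may in part be technical.

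Spike-ins (92 rows) and calendar-date rows (27) were left out, and the 10878 rows averaging 1 raw FPKM or more were tested. Normalised values entered as log2, raw values as log2(FPKM + 0.1), so folds understate changes of low genes. Fits used limma 3.58.1 (R 4.3.3), a mean-variance trend and 9 libraries together, two-sided, with Benjamini-Hochberg adjustment, checked on simulated data. The members and lists were chosen with earlier results of these data known. Named from each list were its called genes, otherwise the 2 most abundant and the 2 with the largest change, from which the text takes examples. Likeness is the root mean square difference of centred log2 raw profiles, the 10 closest genes being named. Alternatives covered the table, pseudocount, filter, scaling, samples, trend, replicate number and single libraries. Sequences are from RefSeq (GRCm38.p6) and transcripts from GENCODE M21, and neither gives coordinates in the build of the files.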

Additional observations from a re-analysis of the deposited data

How the results depend on the processing

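Of the 24 fold changes (8 genes in 3 comparisons), 0 passed the test under any alternative that changed 1 setting of the fit on normalised FPKM, raw FPKM included. H2-Aa, H2-Ab1, H2-Eb1, Cd74, H2-DMa and H2-DMb1 kept their negative sign in Ts1Rhr against WT in all that tested them, Cd74 between -1.03 and -0.67 on the log2 scale without single libraries, H2-Aa between -0.96 and -0.42, H2-Ab1 between -0.74 and -0.34, H2-Eb1 between -1.02 and -0.50, H2-DMb1 between -1.19 and -0.23, and H2-DMa between -0.51 and -0.027, the last without WT replicate 1. Some alternatives could not move these fold changes, so that their sign was fixed there. They are the filter, the trend, the replicate block, only the compared libraries, and leaving out an HMGN1_OE library. In Ts1Rhr against WT H2-DMb2 turned to -0.045 on raw FPKM and -0.069 with 1 spike-in factor per library, and ran from -0.30 to 0.76 without single libraries. Ciita turned to -0.21 on raw FPKM, -0.055 with equal library medians and -0.23 with 1 spike-in factor, and ran from -0.17 to 0.32 without single libraries. In HMGN1_OE against WT the ranges without single libraries that crossed 0 were -0.19 to 0.21 for H2-Eb1, -0.32 to 0.30 for H2-DMa, -0.66 to 0.40 for H2-DMb2, -0.62 to 0.013 for Cd74 and -0.28 to 0.22 for Ciita. In Ts1Rhr against HMGN1_OE, H2-Ab1 was 0.033 on raw FPKM and -0.36 to 0.022 without single libraries, H2-DMb1 -0.80 to 0.25, and Ciita -0.12 with 1 spike-in factor and -0.16 to 0.36. With the filter at a mean of 5 FPKM, H2-DMb1, H2-DMb2 and Ciita were not tested. The causes were not tested.

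Counts over all genes moved more. In Ts1Rhr against WT the 62 calls became 963 on raw FPKM, 20 without a filter, 693 with equal library medians, 267 with only the 6 libraries compared, and 4 to 203 without single libraries. Of the 62 calls 46 were higher and 16 lower, against 467 and 496 on raw FPKM, 251 and 442 with equal library medians, and 18 and 24 with 1 spike-in factor. Leaving out single libraries on raw FPKM, added after seeing the data, gave 1 to 1276 calls. In HMGN1_OE against WT the 10 became 4 on raw FPKM, 19 with a pseudocount of 1, 20 without a filter, 19 without the trend, 18 with only the 6 libraries compared and 1 to 17 without single libraries. In Ts1Rhr against HMGN1_OE the 0 became 1 with a pseudocount of 1 and 0 to 3 without single libraries. Nothing in the labels ties equal replicate numbers together, and same-numbered libraries deviated with correlations from -0.132 to 0.156. With the replicate number as a block the counts were 119, 15 and 5, and the call of no class II gene changed. Such a block cannot change a log2 fold change in this balanced design, so the signs were fixed in advance. FPKM carry no read counts, so the counting error of low genes such as Ciita is unknown.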
